A study of Mus musculus with 16 samples.

Results

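Embigin (Emb) and basigin (Bsg) with 5 transporters of the Slc16 family, Slc16a1, Slc16a3, Slc16a6, Slc16a7 and Slc16a10, were followed in multipotent progenitors of mouse bone marrow. The 7 genes were listed by name out of 47937 gene identifiers in the count table, and all 7 were found and passed the filter on low counts that 11831 genes passed. They were chosen by the level of Emb in MPP3 cells of KO against WT mice, so the members' values in that contrast are given as a description. No FDR of a member is printed for that contrast, and nothing is read from which members passed its threshold. The transporters were set beside Emb to see whether their transcripts follow its rise.

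The series holds 16 polyA RNA libraries of sorted bone marrow cells from 8 C57BL/6 mice, with 1 MPP3 and 1 MPP4 library per mouse and 4 mice per genotype. MPP3 cells, which are biased toward the myeloid lineages, were gated per the labels as LSK+ CD150- CD48+ (LSK being lineage-negative cells with Sca1 and Kit), and MPP4 cells, which are biased toward the lymphoid lineages, additionally as Flt3+. Per the labels, mice called WT were Ebf1fl/fl Tie2Cre+/+ and mice called KO were Ebf1fl/fl Tie2Cre +/cre, so that both would carry floxed Ebf1 alleles and differ in the Cre transgene, whereas the description of the series gives WT mice the transgene and unfloxed alleles. Which of these applies cannot be told from gene counts. Tie2Cre is active in endothelial cells as well as in haematopoietic stem cells and their progeny. WT mice 1 to 4 were female, female, male and male and 12, 11, 12 and 11 weeks old, and KO mice 1 to 4 were male, male, female and female and 10, 9, 11 and 11 weeks old.

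Monocarboxylate transporters carry lactate, pyruvate and ketone bodies across membranes together with protons. Basigin (CD147) and embigin are related glycoproteins with a single membrane span that escort several of these transporters to the plasma membrane and stay bound to them there. Basigin is the usual partner of the transporters encoded by Slc16a1 (MCT1) and Slc16a3 (MCT4), and embigin is the preferred partner of the one encoded by Slc16a7 (MCT2). Embigin was also described as a surface protein of haematopoietic progenitors and of cells of their niche. Slc16a6 (MCT7) has been linked to ketone body export, and Slc16a10 (TAT1) carries aromatic amino acids and thyroid hormones.

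Libraries held 24823708 to 48703193 counts. Flt3, which the MPP4 gate selects, had 256 to 313 CPM (counts scaled to a common normalised library size) in MPP3 WT, 205 to 284 in MPP3 KO, 1160 to 1360 in MPP4 WT and 938 to 1090 in MPP4 KO. Counts of Ebf1, the targeted gene, were 5 to 91 in MPP3 of mice labelled WT and 6 to 84 in MPP3 of mice labelled KO, and 98 to 263 against 488 to 928 in MPP4. The genotypes thus overlapped in MPP3, and in MPP4 the KO libraries were above the WT libraries, against the direction of a knockout (log2 fold change 2.22 ± 0.64, edgeR FDR 0.188). Counts over a whole gene do not separate intact from recombined transcripts, so KO and WT below mean libraries with that label. Cd79a, a B cell receptor component and target of Ebf1 that was looked up after its values were seen, ran with the labels. It was at 1.75 to 3.47 CPM in MPP3 WT, 0.0262 to 0.663 in MPP3 KO, 1.59 to 7.30 in MPP4 WT and up to 0.963 in MPP4 KO. The genotypes did not overlap in either population, although edgeR called it in neither (FDR 0.254 and 0.160). Cd79b did not run with the labels, with means of 72.1 CPM in MPP3 WT, 72.4 in MPP3 KO, 79.1 in MPP4 WT and 84.0 in MPP4 KO. A gene picked by its values is no test of the labels.

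RefSeq (GRCm38.p6) promoter sequence, from 250 bases before to 50 bases after the start site, was at hand for 4 of the 7 genes. Those of Emb, Slc16a1 and Slc16a3 are shown, since transcripts of these 3 genes differed between MPP3 and MPP4 cells, 5′ to 3′ on the strand of the gene, with matches to the searched motifs in capitals. The Emb promoter (chr13:117220323-117220622, + strand) had no match and is printed in lower case throughout, the Slc16a1 promoter is at chr3:104638414-104638713 (+ strand), and the Slc16a3 promoter is at chr11:120948817-120949116 (+ strand).
Emb: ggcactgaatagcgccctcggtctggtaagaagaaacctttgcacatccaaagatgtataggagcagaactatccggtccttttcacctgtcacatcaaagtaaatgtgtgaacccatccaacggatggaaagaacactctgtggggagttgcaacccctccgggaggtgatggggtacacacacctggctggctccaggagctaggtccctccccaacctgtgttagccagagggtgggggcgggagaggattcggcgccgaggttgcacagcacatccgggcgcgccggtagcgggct
Slc16a1: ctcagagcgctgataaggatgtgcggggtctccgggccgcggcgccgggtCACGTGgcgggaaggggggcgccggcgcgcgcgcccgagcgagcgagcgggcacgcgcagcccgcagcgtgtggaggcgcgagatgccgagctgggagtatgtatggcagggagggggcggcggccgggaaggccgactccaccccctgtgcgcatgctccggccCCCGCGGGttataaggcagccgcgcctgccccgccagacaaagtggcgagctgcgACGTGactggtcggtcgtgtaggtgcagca
Slc16a3: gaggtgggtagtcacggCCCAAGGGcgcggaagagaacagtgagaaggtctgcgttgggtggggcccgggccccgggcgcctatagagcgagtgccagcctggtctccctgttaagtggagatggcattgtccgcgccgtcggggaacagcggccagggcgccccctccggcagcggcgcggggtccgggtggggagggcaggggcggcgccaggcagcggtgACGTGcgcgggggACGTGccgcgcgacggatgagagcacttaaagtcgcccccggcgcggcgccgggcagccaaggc

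The motifs, searched on both strands, were the EBF1 core CCCNNGGG, the C/EBP core TTGCNNAA, the E-box CACGTG, the hypoxia response core ACGTG, which every E-box contains, and the PU.1 core GAGGAA. They were chosen after the promoters had been seen. The Slc16a1 promoter held an EBF1 core starting at base -35 from the start site, an E-box at base -200 and a hypoxia response core at base 21. The Slc16a3 promoter held an EBF1 core at base -233 and hypoxia response cores at bases -27 and -14. Among 32851 promoters of the same length, 13.7% held the EBF1 core, 7.15% the E-box, 19.6% the hypoxia response core, 10.8% the C/EBP core and 28.3% the PU.1 core. A match is a run of letters and not a binding site. The GC content was 57.7% for Emb, 73.7% for Slc16a1 and 73.3% for Slc16a3, beside a median of 52.7% over all promoters. The promoter of Slc16a10, on the - strand, was at 65.3% GC and had no match.

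To compare genes with each other, CPM were divided by the exon length in kilobases. On this scale the order of the mean levels was the same in the 4 groups, with Bsg highest, followed by Emb, Slc16a1, Slc16a10, Slc16a6, Slc16a3 and Slc16a7. In MPP3 WT the levels were 268 ± 20.4 CPM per kilobase for Bsg, 52.1 ± 4.69 for Emb, 21.0 ± 2.55 for Slc16a1, 5.64 ± 1.29 for Slc16a10, 5.13 ± 0.812 for Slc16a6, 2.81 ± 1.12 for Slc16a3 and 0.94 ± 0.0334 for Slc16a7 (SD, n = 4). The libraries of Slc16a10 and Slc16a6, neighbours in this order, overlapped in MPP3 WT, MPP3 KO and MPP4 WT and did not overlap in MPP4 KO, and those of the other neighbours did not overlap in any group.

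The place of Emb depends on its gene model in size but not in rank. Its annotated exons (ENSMUSG00000021728, chromosome 13, 117208536 to 117274415, + strand) cover 6906 bases, and its longest transcript has 2923 bases. Scaled by the longest transcript, Emb was at 123 ± 11.1 CPM per kilobase in MPP3 WT and 289 ± 28.5 in MPP4 KO, where Bsg was at 318 ± 24.2 and 355 ± 32.8 (SD, n = 4). The order of the 7 genes was the same in each group on this scale. The RefSeq start site behind the promoter shown above lies inside the annotated span of Emb and not at its first base.

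**Figure D1:**
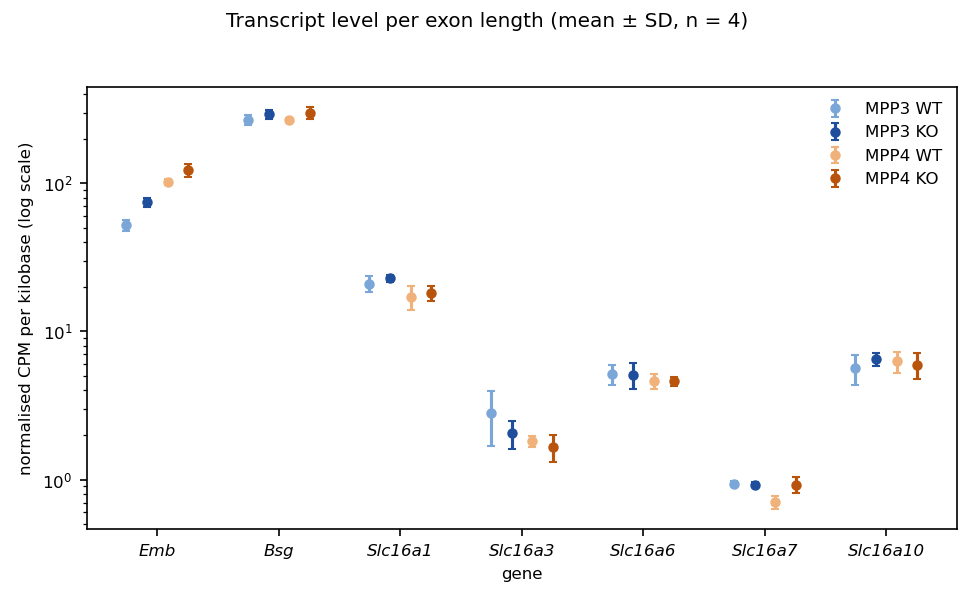
Transcript level of the 7 genes as normalised CPM per kilobase of exons, on a log axis, by group. Points are means and bars the SD of 4 libraries. Bsg sits near 268 to 299 in the 4 groups and Slc16a7 near 1, while Emb climbs from 52.1 in MPP3 WT to 122 in MPP4 KO.

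Among the 5 listed transporters, Slc16a1 made up most of the transcripts. It accounted for 59.1% ± 1.43 of their summed level per kilobase in MPP3 WT, 61.0% ± 3.36 in MPP3 KO, 55.6% ± 6.86 in MPP4 WT and 58.0% ± 4.96 in MPP4 KO (SD, n = 4). Slc16a10 and Slc16a6 followed with 15.9% ± 3.56 and 14.5% ± 1.65 in MPP3 WT, and Slc16a7 stayed between 2.20% and 3.27% in all 16 libraries. The summed level was 35.5 ± 3.93 CPM per kilobase in MPP3 WT, 37.3 ± 1.52 in MPP3 KO, 30.4 ± 2.15 in MPP4 WT and 31.3 ± 1.53 in MPP4 KO. The WT and KO libraries overlapped in this sum in both populations.

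In MPP3 cells, KO mice were compared with WT mice to ask whether targeting Ebf1 alters gene expression in the myeloid-biased progenitors, and here whether the transporters moved with Emb. Emb was higher in KO, and the KO and WT libraries overlapped for Bsg and for each of the 5 transporters. Only 4.58% of the tested genes had groups that did not overlap, so the overlap alone does not show that these genes failed to follow Emb. Emb was at 336, 328, 391 and 384 CPM in WT mice 1 to 4 and at 531, 535, 525 and 465 CPM in KO mice 1 to 4. The 4 KO libraries were all above the 4 WT libraries, with KO mouse 4 lowest of its group. The log2 fold change was 0.51 ± 0.08 (SE, n = 4 per group).

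Bsg, the partner of MCT1 and MCT4, was at 537, 462, 456 and 487 CPM in WT and 487, 572, 523 and 543 CPM in KO, a log2 difference of 0.13 ± 0.07 with overlapping groups. Slc16a1 was at 90.1, 105, 78.8 and 97.6 CPM in WT and 105, 101, 92.4 and 105 CPM in KO, a log2 difference of 0.12 ± 0.12. Both genes thus had a mean slightly higher in KO, and for both the libraries of the genotypes overlapped. Slc16a7, the transporter that embigin prefers, was at 11.6, 11.3, 10.7 and 11.0 CPM in WT and 11.5, 10.6, 10.5 and 11.0 CPM in KO, which left a log2 difference of -0.03 ± 0.13. Slc16a7 thus had nearly the same level in all 8 MPP3 libraries, from 10.5 to 11.6 CPM.

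Slc16a3, the lactate exporter of strongly glycolytic cells, was at 22.7, 14.7, 8.14 and 14.3 CPM in WT and 8.03, 13.4, 10.2 and 11.9 CPM in KO. Its WT libraries were widely spread and enclosed the KO libraries except for KO mouse 1, and the log2 difference was -0.46 ± 0.25. This value turned on single WT libraries, at -0.18 without MPP3 WT 1 and -0.66 without MPP3 WT 3. Slc16a6 ranged from 21.7 to 30.2 CPM in WT and from 18.9 to 29.7 CPM in KO, a log2 difference of -0.02 ± 0.15. Slc16a10 ranged from 32.2 to 54.7 CPM in WT and from 41.8 to 53.1 CPM in KO, a log2 difference of 0.20 ± 0.17. The Slc16a10 value was 0.1 without MPP3 WT 1 and 0.37 without MPP3 WT 4, and that of Slc16a1 was 0.05 without MPP3 WT 3 and 0.19 without MPP3 WT 2. KO and WT overlapped for Slc16a3, Slc16a6 and Slc16a10.

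In the fit over all genes Emb was the 1 member past the threshold used for the other contrasts (edgeR, FDR below 0.1), where 0.0676% of the tested genes were, and the 1 member whose groups did not overlap, beside 4.58% of the tested genes. Nothing is read from either count, since this contrast chose Emb. The median log2 difference was 0.12 over the 7 genes and -0.01 over all tested genes. The log2 difference of Emb was 0.45 with age as a term in the model, 0.475 without the MPP3 library of WT mouse 2 and 0.515 with only the 8 libraries compared, and in these 3 fits it was not past the threshold.

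**Figure D2:**
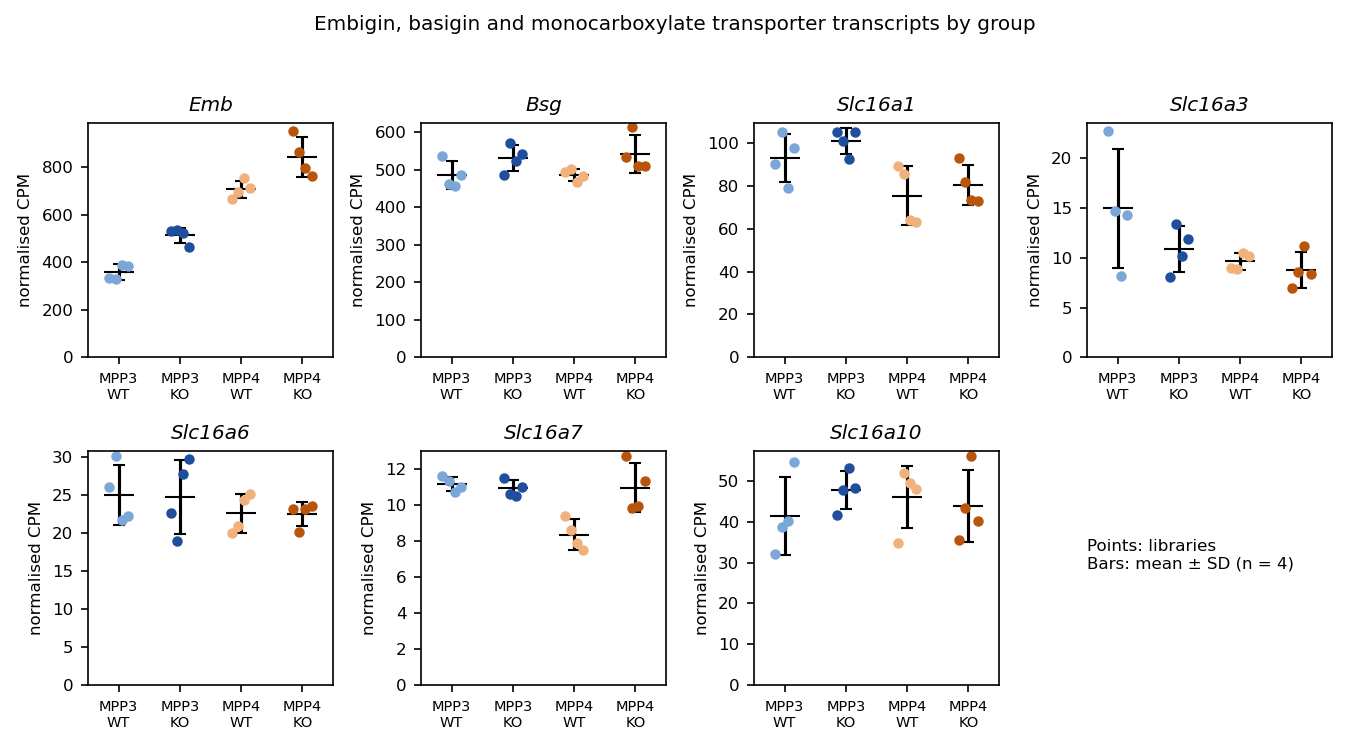
Normalised CPM of the 7 genes in each library, by population and genotype, with axes that start at 0. Points are libraries and bars give the mean and SD of 4 libraries. The mean of Emb is 360, 514, 708 and 845 CPM in the 4 groups from left to right. Between the genotypes of 1 population or the populations of 1 genotype, the other genes overlap except for Bsg and Slc16a7 between the genotypes of MPP4 and Slc16a7 between the populations of WT mice.

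Marker genes of other cell types were summed in the same MPP3 libraries, which were sorted after depletion of cells with CD3, B220, CD11b, Gr1 or Ter119. The summed level of 7 neutrophil and monocyte progenitor genes, which include Elane and Mpo, was 5660 to 9510 CPM in MPP3 WT and 6770 to 15900 CPM in MPP3 KO, with medians of 8210 and 14100, and none of the 7 was at 0 in a whole group. The summed level of 5 B and plasma cell genes was 174 to 592 CPM in MPP3 WT and 67.5 to 150 CPM in MPP3 KO. Igkc (means 223 and 15.3 CPM) and Jchain (70.0 and 5.25 CPM) carried most of that difference, while Cd79b was at 72.1 and 72.4 CPM. Erythroid genes, whose cells carry much basigin and MCT1, summed to 25.8 to 75.0 CPM in WT and 33.9 to 57.6 CPM in KO. The part of these cells in the Emb values was not tested, and in bulk libraries more cells of a type and more RNA per cell cannot be told apart.

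MPP4 cells, the lymphoid-biased progenitors, gave libraries outside the contrast that chose the genes, but they came from the same mice, and the deviations of a mouse's MPP3 and MPP4 libraries from their group means correlated by 0.269 to 0.548 over genes. The MPP4 values are thus not independent of the MPP3 values. None of the 7 genes passed the test between KO and WT, while Emb, Slc16a7 and Bsg were each above all WT libraries in all KO libraries. Emb was at 669, 695, 755 and 712 CPM in WT and 954, 865, 796 and 766 CPM in KO. The lowest KO value was 766 CPM and the highest WT value 755 CPM, so that the groups came close without touching. The log2 fold change was 0.26 ± 0.08 (SE, n = 4 per group, edgeR quasi-likelihood FDR 0.199 over all genes). The DESeq2 Wald test gave FDR 0.0834, and edgeR with sex as a term gave 0.0604, so that the call for Emb in MPP4 depends on the method. Over 26 alternatives the FDR ranged from 0.0604 to 0.596.

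Slc16a7 was at 9.39, 8.60, 7.88 and 7.48 CPM in MPP4 WT and 12.7, 9.83, 9.93 and 11.3 CPM in MPP4 KO, a log2 fold change of 0.39 ± 0.13 (edgeR FDR 0.226). Bsg was at 494, 501, 466 and 484 CPM in MPP4 WT and 535, 615, 509 and 510 CPM in MPP4 KO, a log2 fold change of 0.16 ± 0.07 (edgeR FDR 0.368). In both genes the KO libraries lay above the WT libraries, and in neither was the difference called under any alternative. The counts behind Slc16a7 were low, with 254 to 442 per MPP4 library, and those behind Slc16a3 were similar, with 241 to 509.

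The other 4 transporters overlapped between the genotypes of MPP4. Slc16a1 was at 89.0, 85.3, 63.9 and 62.9 CPM in WT and 92.9, 81.8, 73.5 and 73.1 CPM in KO, a log2 difference of 0.09 ± 0.12 (edgeR FDR 0.782). Slc16a3 differed by -0.14 ± 0.25 (edgeR FDR 0.845), with 8.87 to 10.5 CPM in WT and 6.95 to 11.2 CPM in KO. Slc16a6 differed by -0.01 ± 0.15 (edgeR FDR 0.991) and Slc16a10 by -0.08 ± 0.17 (edgeR FDR 0.890).

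Thus 0 of 7 genes were called by edgeR in MPP4, where 0.0169% of the tested genes were called. DESeq2 called 1 of the 7 and 305 of the 11831 tested genes, and 3 of the 7 and 1519 of the tested genes had an unadjusted edgeR p below 0.05. The groups of 3 of the 7 genes did not overlap, which held for 7.27% of the tested genes. The median log2 difference was 0.09 over the 7 genes and -0.01 over all tested genes. The summed neutrophil and monocyte progenitor genes were at 2080 to 2750 CPM in MPP4 WT and 2450 to 3720 CPM in MPP4 KO, and the 5 lymphoid progenitor genes at 1180 to 1450 and 1480 to 1930 CPM. The first of these sums overlapped between the genotypes and the second did not. Most of the first was Mpo, with a mean of 1770 CPM in WT and 2330 CPM in KO. Of its genes, Ctsg (96.9 to 143 and 214 to 266 CPM) and Csf1r (26.9 to 37.6 and 49.4 to 85.5 CPM) did not overlap and the others did. Both were higher in KO and not called (edgeR FDR 0.11 each). Most of the second sum was Dntt, with a mean of 1260 CPM in WT and 1640 CPM in KO, while Rag1 had 3.77 and 3.17 CPM. The 5 genes of the sort gate, among them Kit and Flt3, summed to 1980 to 2260 CPM in MPP4 WT and 1710 to 1860 CPM in MPP4 KO, and to 1410 to 1430 and 1220 to 1390 CPM in MPP3, without overlap in either population. These genes did not all differ in one direction. Kit was called lower in MPP4 KO (-0.42 ± 0.07, edgeR FDR 0.056), whereas Ly6a had a mean of 49.3 CPM in MPP4 WT and 66.7 CPM in MPP4 KO (0.44 ± 0.13, edgeR FDR 0.193) and Cd48 of 243 and 299 CPM (0.30 ± 0.10, edgeR FDR 0.226). In MPP3, Ly6a had a mean of 30.3 CPM in WT and 41.7 CPM in KO (0.46 ± 0.13, edgeR FDR 0.195). The part of these differences in the level of Emb was not tested.

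**Figure D3:**
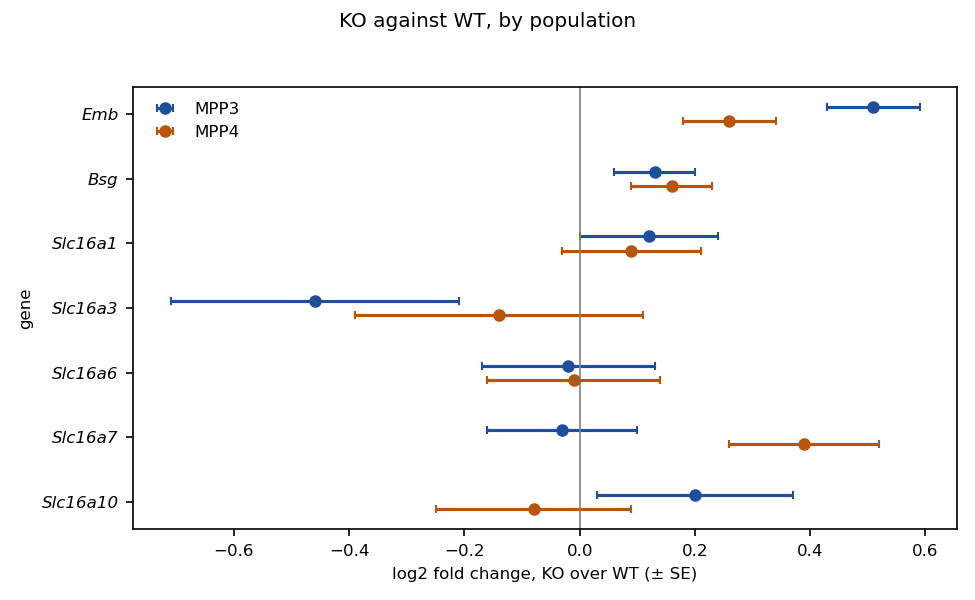
Log2 fold change of KO over WT in MPP3 and MPP4 cells for the 7 genes, with bars of 1 SE. Emb lies at 0.51 in MPP3 and 0.26 in MPP4, Slc16a7 at -0.03 and 0.39, Bsg at 0.13 and 0.16, and Slc16a3 has the widest bars.

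The KO effects in MPP3 and MPP4 were compared in the same fit. None of the 7 genes was called, with 0.0% of the tested genes called. An unadjusted edgeR p below 0.05 was found for 2 of the 7 genes and for 270 of all 11831 genes. The 2 were Emb and Slc16a7, and the libraries that chose Emb are part of this contrast. DESeq2 called 8 genes, none of them a member. The effect on Emb was larger in MPP3 than in MPP4 by 0.26 ± 0.11 on the log2 scale, which is given as a description because it holds the libraries that chose Emb. The effect on Slc16a7 was smaller in MPP3 by -0.42 ± 0.18 (edgeR FDR 1.0). The differences for Bsg (-0.03 ± 0.10), Slc16a1 (0.02 ± 0.17), Slc16a6 (-0.01 ± 0.21), Slc16a3 (-0.32 ± 0.35) and Slc16a10 (0.28 ± 0.24) each had an edgeR FDR of 1.0. Leaving out 1 library at a time, the Slc16a3 difference lay between -0.52 (without MPP3 WT 3) and -0.04 (without MPP3 WT 1), and that of Slc16a10 between 0.18 (without MPP3 WT 1) and 0.44 (without MPP3 WT 4). The differences for Bsg, Slc16a1 and Slc16a6 lay on either side of 0, between -0.108 and 0.105.

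The comparison of MPP3 with MPP4, averaged over genotypes, asked how the members differ between the myeloid-biased and the lymphoid-biased progenitors. This contrast weights KO and WT equally, so the difference between KO and WT in MPP3 that chose the genes does not enter it. Emb was lower in MPP3, and Slc16a1 and Slc16a3 were higher. In each of the 8 mice the MPP3 library had less Emb than the MPP4 library of the same mouse, with a ratio of 0.473 to 0.659. The 8 MPP3 libraries, at 328 to 535 CPM, were all below the 8 MPP4 libraries, at 669 to 954 CPM, and Emb was the only 1 of the 7 genes of which this held, beside 6.94% of the tested genes. The log2 fold change was -0.85 ± 0.06 (SE, edgeR FDR 8.5e-09), and it ranged from -0.87 to -0.82 over 25 alternatives.

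Slc16a1, the highest per kilobase of the 5 listed transporters, was higher in MPP3 than in MPP4 in each of the 8 mice, with a ratio of 1.01 to 1.55. The log2 fold change was 0.32 ± 0.09 (SE, edgeR FDR 0.0132), and it was called in all 25 alternatives. The ratio was smallest in WT mouse 1, where MPP3 had 90.1 CPM and MPP4 had 89.0 CPM, and the libraries of different mice overlapped between the populations.

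Slc16a3 was higher in MPP3 in 6 of the 8 mice, with a ratio of 0.775 to 2.53, the highest being that of WT mouse 1. The log2 fold change was 0.47 ± 0.18 (edgeR FDR 0.0644). The counts behind Slc16a3 were low, with 307 to 755 per MPP3 library and 241 to 509 per MPP4 library. The call was not stable. It was lost with all genes with at least 1 count (log2 fold change 0.47, FDR 0.108), and also without MPP3 WT 1 (FDR 0.146), MPP3 KO 2 (0.121), MPP3 KO 4 (0.102), MPP4 WT 1 (0.102), MPP4 WT 2 (0.1) or MPP4 KO 1 (0.12), in which the log2 fold change was 0.336 to 0.457, and without both libraries of WT mouse 1 the log2 fold change was 0.32 (FDR 0.192). Over 25 alternatives the FDR of Slc16a3 ranged from 0.00974 to 0.192. Slc16a7 differed by 0.21 ± 0.09 (edgeR FDR 0.130) and was higher in MPP3 in 6 of 8 mice. It was called without MPP4 WT 1 (FDR 0.0967) or without MPP4 KO 1 (FDR 0.0719), with FDR up to 0.254 among the alternatives.

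Bsg did not follow Emb. Its MPP3 libraries ranged from 456 to 572 CPM and its MPP4 libraries from 466 to 615 CPM, MPP3 was higher in 4 of 8 mice, and the log2 difference was -0.02 ± 0.05 (edgeR FDR 0.871). Slc16a6 differed by 0.14 ± 0.10 (edgeR FDR 0.379) and Slc16a10 by -0.01 ± 0.12 (edgeR FDR 0.956), each higher in MPP3 in 4 of 8 mice. Of the 7 genes, 3 passed the test, with Slc16a1 and Slc16a3 up and Emb down in MPP3, where 28.3% of the tested genes were called, so that 3 of 7 is not far from the background. The median log2 difference over the 7 genes was 0.14, and over all tested genes it was 0.0.

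**Figure D4:**
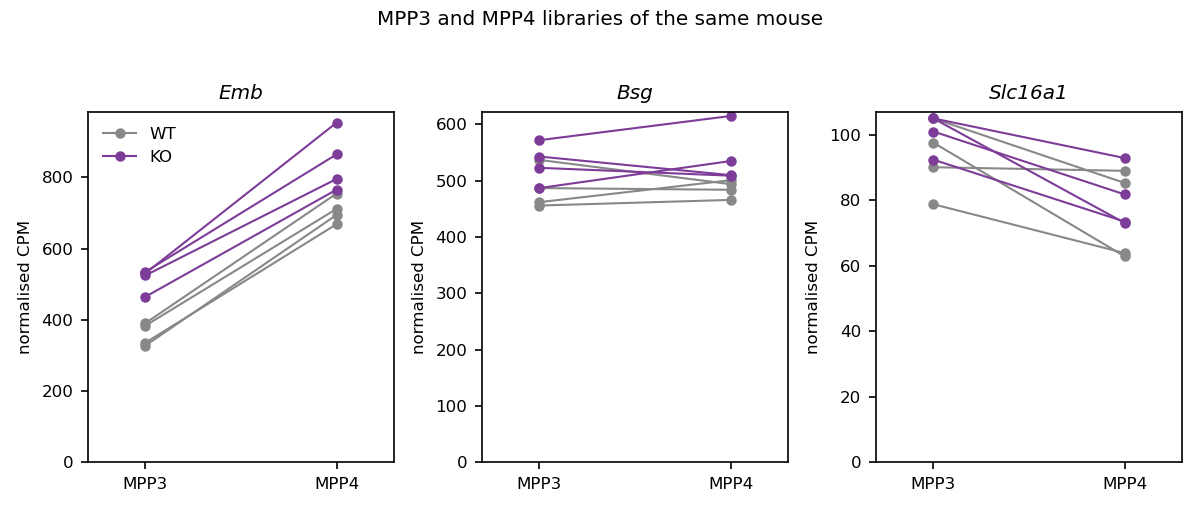
Normalised CPM of Emb, Bsg and Slc16a1 in the MPP3 and MPP4 libraries of the 8 mice, with a line for each mouse, grey for WT and purple for KO. All 8 Emb lines rise from MPP3 to MPP4, all 8 Slc16a1 lines fall, and 4 of the 8 Bsg lines rise.

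Within each genotype the same contrast was fitted separately. Emb was lower in MPP3 by -0.98 ± 0.08 on the log2 scale in WT mice and by -0.72 ± 0.08 in KO mice, given without a test since each holds MPP3 libraries that chose the gene. Slc16a7 was higher in MPP3 of WT mice, at 10.7 to 11.6 CPM against 7.48 to 9.39 CPM in MPP4, a log2 fold change of 0.42 ± 0.13 (edgeR FDR 0.0505), and it was at -0.01 ± 0.13 in KO mice (edgeR FDR 0.988). The 4 MPP3 libraries of WT mice were above the 4 MPP4 libraries. This call was lost without MPP3 WT 1 (FDR 0.107), MPP4 WT 3 (0.127) or MPP4 WT 4 (0.144), with all genes with at least 1 count (0.405, FDR 0.14) and with only the 8 libraries compared (0.415, FDR 0.118), and the FDR was 0.0314 to 0.144 over 26 alternatives. That the genotypes differ in it is not shown, as the test of the difference gave FDR 1.0.

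Slc16a1 was at a similar log2 difference in both genotypes, 0.30 ± 0.12 in WT mice (edgeR FDR 0.137) and 0.33 ± 0.12 in KO mice (edgeR FDR 0.0925). With the mouse as a block, the value in WT mice was 0.31 (FDR 0.0256), in a fit that called 24.8% of the tested genes, and the FDR was 0.0256 to 0.353 over 26 alternatives. The call in KO mice was lost on leaving out any 1 of 7 libraries (MPP3 WT 4, MPP3 KO 1, 2 or 4, MPP4 KO 2, 3 or 4), with FDR up to 0.205, and also with all genes with at least 1 count (FDR 0.146) and with the filterByExpr filter (FDR 0.119). Slc16a3 was higher in MPP3 by 0.63 ± 0.25 in WT mice (edgeR FDR 0.128) and by 0.31 ± 0.25 in KO mice (edgeR FDR 0.5). The value in WT mice turned on single libraries, at 0.84 without MPP3 WT 3 (FDR 0.0193), 0.36 without MPP3 WT 1 (FDR 0.401) and 0.33 without both libraries of WT mouse 1 (FDR 0.503). The DESeq2 Wald test called it at nearly the same size (0.632, FDR 0.0871).

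Leaving Emb aside, 1 of the other 6 members was called in WT mice (Slc16a7), where 15.1% of the tested genes were called, and it was also the 1 of the 6 whose groups did not overlap, which held for 15.9% of the tested genes. In KO mice 1 of the 6 was called (Slc16a1) beside 17.9% of the tested genes, and the groups of 0 of the 6 did not overlap beside 17.2%. These shares are close to the background. The 5 lymphoid progenitor genes, among them Il7r and Dntt, summed to 43.6 to 87.6 CPM in the 8 MPP3 libraries and 1180 to 1930 CPM in the 8 MPP4 libraries. The 7 neutrophil and monocyte progenitor genes summed to 5660 to 15900 CPM in MPP3 and 2080 to 3720 CPM in MPP4, and the 4 mast cell and basophil genes to 158 to 357 CPM in MPP3 and 19.1 to 35.3 CPM in MPP4, where Cma1 and Gzmb were at 0 in all libraries. The part of these cells in the members' levels was not tested.

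**Figure D5:**
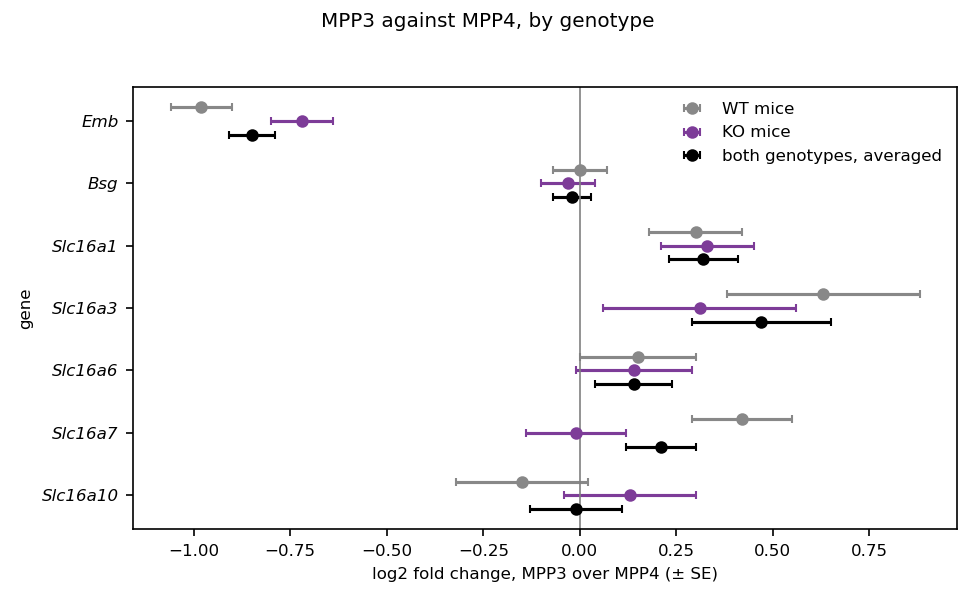
Log2 fold change of MPP3 over MPP4 for the 7 genes in WT mice, in KO mice and averaged over both, with bars of 1 SE. Emb lies at -0.98, -0.72 and -0.85, Slc16a1 at 0.30, 0.33 and 0.32, and Bsg at about 0 in all 3, while Slc16a7 lies at 0.42 in WT mice and -0.01 in KO mice.

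The ratio of Emb to Bsg counts was 0.746 ± 0.101 in MPP3 WT, 0.970 ± 0.0995 in MPP3 KO, 1.46 ± 0.116 in MPP4 WT and 1.56 ± 0.158 in MPP4 KO (SD, n = 4). The libraries ranged from 0.626 to 0.859, from 0.855 to 1.09, from 1.36 to 1.62 and from 1.41 to 1.78, so that the genotypes overlapped within each population and the populations did not overlap.

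Across the 16 libraries the genes closest to Emb in log2 CPM were Tpm4, a tropomyosin of the actin cytoskeleton (Pearson r 0.972), Ncf1, a subunit of the phagocyte NADPH oxidase (0.958), Rgs10, a regulator of G protein signalling (0.958), Rpl27a, a ribosomal protein (0.951), and Scpep1, a serine carboxypeptidase (0.951). These values are a description, because the libraries come from 8 mice and fall into 2 populations that set most of the spread. Of the members, Bsg had r 0.303 with Emb and ranked 3028 of 11830 genes, followed by Slc16a10 (0.15), Slc16a7 (-0.353), Slc16a6 (-0.403), Slc16a1 (-0.526) and Slc16a3 (-0.681). Slc16a1 and Slc16a3, the members higher in MPP3, thus had the most negative values. The 5 genes closest to Emb had log2 differences between KO and WT that ranged from 0.16 (Rpl27a) to 0.53 (Tpm4) in MPP3 and from 0.07 (Rgs10) to 0.2 (Tpm4) in MPP4, in libraries that took part in picking them.

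Of the 9 other Slc16 genes, 5 passed the filter, and Slc16a5, Slc16a8 and Slc16a14 had counts of 0 in at least 1 library of every group. None of the 5 was called between KO and WT by edgeR in either population. In MPP4 all 5 had a negative log2 difference, with a median of -0.37, 1 had an unadjusted p below 0.05, and DESeq2 called 1. Of all 11831 tested genes, 6228 had a negative log2 difference in MPP4, 1519 had such a p and DESeq2 called 305. Slc16a11 (MCT11) was the strongest in level, at 48.4 to 66.3 CPM in MPP4 WT and 25.6 to 37.0 CPM in MPP4 KO, a log2 difference of -0.86 ± 0.29 (edgeR FDR 0.235) with groups that did not overlap. In MPP3, Slc16a11 differed by -0.24 ± 0.29 (edgeR FDR 0.831). Averaged over genotypes, Slc16a9, a carnitine transporter, was higher in MPP3 (1.39 ± 0.31, edgeR FDR 0.00343), and Slc16a11 (-0.58 ± 0.21, FDR 0.0515) and Slc16a13 (-0.34 ± 0.10, FDR 0.0168) were lower, so 3 of the 5 were called where 28.3% of all tested genes were.

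Of 9 relatives, ligands and partners of basigin and embigin, 7 were tested and none was called between KO and WT in MPP3 or MPP4 by edgeR or DESeq2, and none had an unadjusted p below 0.05. Ppia, which encodes cyclophilin A, an extracellular ligand of basigin, was the most abundant, at 1970 to 2220 CPM in MPP3 WT and 2070 to 2190 CPM in MPP3 KO, a log2 difference of 0.05 ± 0.06 (edgeR FDR 0.831). Nptn, which encodes neuroplastin, the third glycoprotein of the family, differed by -0.45 ± 0.27 in MPP3 (edgeR FDR 0.608) and -0.33 ± 0.27 in MPP4 (edgeR FDR 0.626). Between the populations 3 of the 7 were called, beside 28.3% of all tested genes. Cd44, the hyaluronan receptor, was lower in MPP3 (-0.42 ± 0.04, edgeR FDR 1.64e-06). Slc3a2, the heavy chain of amino acid transporters that bind basigin (0.26 ± 0.07, FDR 0.00918), and Ppib, which encodes cyclophilin B (0.16 ± 0.05, FDR 0.0244), were higher.

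Of 17 genes of lactate and pyruvate handling, 15 were tested and none was called between KO and WT in either population by edgeR or DESeq2. The number with an unadjusted p below 0.05 was 0 of 15 in MPP3 and 3 of 15 in MPP4, beside 1242 and 1519 of all 11831 tested genes. Ldha, the lactate dehydrogenase subunit that favours lactate formation, was at 974 to 1090 CPM in MPP3 WT and 1070 to 1200 CPM in MPP3 KO, a log2 difference of 0.11 ± 0.08 (edgeR FDR 0.696). It differed by 0.18 ± 0.08 in MPP4 (edgeR FDR 0.362). Between the populations 5 of the 15 were called, 4 higher and 1 lower in MPP3, which is near the 28.3% called among all tested genes. Pdk3, an inhibitory kinase of pyruvate dehydrogenase, was higher in MPP3 (0.56 ± 0.05, edgeR FDR 6.76e-07), with 115 to 140 CPM in MPP3 and 83.8 to 101 CPM in MPP4, and Pdk1, a related kinase, was lower (-0.28 ± 0.09, FDR 0.0378). Ldha (0.16 ± 0.06, FDR 0.0473) and the subunits of the mitochondrial pyruvate carrier Mpc1 (0.15 ± 0.06, FDR 0.0873) and Mpc2 (0.19 ± 0.06, FDR 0.0288) were higher in MPP3 by small margins.

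On the annotation, exons of Emb share 686 bases with Gm17509 on the other strand, which had 9 to 64 counts per library beside 8328 to 36595 for Emb. Exons of Slc16a6 (chromosome 11, 109450855 to 109473598) share 1052 bases with Amz2 on the other strand, which had 1110 to 2614 counts beside 569 to 1182 for Slc16a6. Since the use of strand in the counting was not stated, the level of Slc16a6 is uncertain.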

How the data were processed

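RNA was measured in 16 libraries (NEBNext SingleCell/Low Input kit, paired-end reads). The authors aligned reads to mm10 with STAR 2.7.3a and deposited raw counts per Ensembl gene from featureCounts 2.0.0, and the annotation release and the strand setting for RNA were not given in the sources used here. A second deposited table, of counts divided by size factors, was not used. The 47937 identifiers were named from GENCODE M21, which paired 47224 with a symbol. Groups came from the labels. The members, lists and tests were chosen with earlier results of these data known. The named genes were the 7 members, the list genes that were called or most abundant, and the 5 genes closest to Emb by Pearson r. Gate genes, marker genes, genes that overlap a member and Ebf1 were named too. Nptn, Slc16a5, Slc16a8 and Slc16a14 were list genes named outside this choice, and Cd79a was named after its values were seen.

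Counts were tested with edgeR 4.0.16 (TMM, quasi-likelihood, R 4.3.3) in 1 fit over all 16 libraries, for genes whose mean count exceeded 100 in at least 1 group, with Benjamini-Hochberg adjustment over 11831 genes and calls at FDR below 0.1. The code was tested on simulated data. CPM use TMM-normalised library sizes of 25369275 to 48474114. At this depth 3 counts, the limit for a gene at 0, correspond to 0.0619 to 0.118 CPM. Such limits cover counting error only. Exon lengths were taken from GENCODE M21. The SE is the log2 fold change divided by the square root of F. The p-values measure the spread between libraries of a group, with the MPP3 and MPP4 libraries of a mouse taken as independent. For MPP3 against MPP4 and for the difference of the KO effects, they do not measure the spread within mice. MPP3 and MPP4 libraries with the same number came from the same mouse per the labels, and their deviations from the group means correlated by 0.269 to 0.548, each most strongly with its own mouse. DESeq2 1.42.0 and other normalisations, filters, terms and blocks were alternatives. The labels gave no batch or date.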

Additional observations from a re-analysis of the deposited data

Results flagged for a closer look

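Of the 28 sets of 4 libraries examined for the 7 genes, 2 held a library far from the other 3, where chance flags about 1 in 20. Emb in MPP3 KO had a gap of 0.853 of its range, with KO mouse 4 at 465 CPM and the other 3 at 525 to 535 CPM. Slc16a6 in MPP4 KO had a gap of 0.901 of its range, with KO mouse 2 at 20.2 CPM and the other 3 at 23.2 to 23.5 CPM.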

How the results depend on the processing

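Of 1078 log2 values of the 7 genes under alternatives, 977 kept their direction and side of the threshold, 25 lost a call, 12 gained one and 64 changed sign, all of these uncalled and near 0. The number of members called between KO and WT in MPP3 was 1, and it was 0 with age as a term, with only the 8 libraries compared and, over the fits that left out 1 library each (0 to 1), without MPP3 WT 2. In MPP4 it was 0, and it was 1 with the DESeq2 Wald test and with sex as a term. Between the populations in WT mice it was 2, and it was 4 with DESeq2, 1 with all genes with at least 1 count and with only the 8 libraries compared, and 1 to 4 with 1 library left out (1 without MPP3 WT 1, MPP4 WT 3 or MPP4 WT 4, and 4 without MPP3 WT 3). In KO mice it was 2, and it was 1 with all genes with at least 1 count and with the filterByExpr filter, and 1 to 2 with 1 library left out. The cause of these moves was not tested.

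With the mouse as a block, the fit called 2930 genes against 1790 between the populations in WT mice, 3346 against 2116 in KO mice, and 2 against 0 for the difference of the KO effects, and it changed no call of a member except that of Slc16a1 in WT mice. Between genotypes the replicate numbers are names only: deviations of libraries with the same number correlated by -0.464 to 0.127. A replicate block on them called 29 genes in MPP3 and 23 in MPP4, with the same members called. Over all tested genes, 8 were called between KO and WT in MPP3, with 1 (age as a term) to 215 (DESeq2) under the alternatives and 1 to 137 with 1 library left out, and 2 were called in MPP4, with 1 (age as a term) to 305 (DESeq2) and 1 to 41.

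The signs that changed between KO and WT were those of Slc16a6 in MPP3 (0.001 with filterByExpr, 0.118 with age as a term, 0.005 without both libraries of WT mouse 1, and -0.114 to 0.099 with 1 library left out), Slc16a7 in MPP3 (0.002 with age), Slc16a1 in MPP4 (-0.004 with age), Slc16a6 in MPP4 (0.005 with RLE size factors and with DESeq2, 0.002 with filterByExpr, 0.14 with age, and -0.061 to 0.051 with 1 library left out) and Slc16a10 in MPP4 (-0.218 to 0.012 with 1 library left out).

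Between the populations they were those of Bsg in WT mice (0.002 with RLE size factors and with DESeq2, and -0.055 to 0.027 with 1 library left out), Bsg in KO mice (-0.059 to 0.037), Slc16a7 in KO mice (0.001 with all genes with at least 1 count, 0.002 with the mouse as a replicate block, and -0.054 to 0.076 with 1 library left out), and, averaged over genotypes, Bsg (-0.042 to 0.017) and Slc16a10 (-0.095 to 0.057).

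For the difference of the KO effects they were those of Bsg (0.015 without both libraries of WT mouse 1, and -0.059 to 0.039 with 1 library left out), Slc16a1 (-0.085 without WT mouse 1, and -0.067 to 0.101) and Slc16a6 (0.009 with all genes with at least 1 count and with bias-adjusted deviances, 0.065 without WT mouse 1, and -0.108 to 0.105).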
